A study of Rattus norvegicus with 6 samples.

Results

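Integrins are the cell surface receptors that hold a cell to its matrix, and focal adhesions are the protein plaques that tie clustered integrins to the actin cytoskeleton. The genes described here are 33 chosen by symbol, of 37209 symbols in the count table: 12 integrin alpha subunits, 6 beta subunits and 15 cytoplasmic proteins of the plaque. In the table, 32 carry the symbol itself and Tns2 is listed under its older symbol Tenc1. Low-count filtering left 32 of the 33 among the 13390 genes tested, all but Itgb7.

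The cells were primary, wild-type mesenchymal stem cells from rat femoral bone marrow (BMSCs), the stromal progenitors of bone, cartilage and fat cells. At 80% confluence they received 3% cigarette smoke extract (CSE) for 6 h in 3 libraries (CSE1 to CSE3), or serum-free culture medium for 6 h in 3 libraries (Control1 to Control3). The age, sex and number of donor animals are not given in the labels, nor is the medium in which the extract was diluted. Nothing says that libraries of 1 group stem from different cultures, and the p-values therefore cover the variation among these libraries only, possibly a technical one. The comparison asks how gene expression in these progenitors differed after the exposure. If the medium differed between the groups, its effect cannot be told apart from that of the extract.

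As background, an integrin is a pair of 1 alpha and 1 beta subunit, and the pair sets the ligand. The alpha subunits 1, 2, 10 and 11 pair with beta 1 to bind collagen, the subunits 3, 6 and 7 pair with beta 1 to bind laminin, and the subunits 5, 8 and v belong to pairs that recognise the Arg-Gly-Asp motif of fibronectin and vitronectin. Talin and kindlin bind the beta tail and switch the receptor on, vinculin then strengthens the link to actin, and paxillin, FAK and p130Cas pass on the signal. In marrow stromal cells, adhesion to collagen and fibronectin is known to bear on spreading, survival and bone formation.

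Library totals lay between 15958621 and 22589327 counts, higher in each CSE library than in any control library. Levels are given in CPM, the usual unit of a gene's count relative to the size of its library, here the TMM-scaled size. The difference between groups is the log2 fold change of CSE over control ± SE, tested with edgeR's quasi-likelihood F test and Benjamini-Hochberg adjustment over all tested genes at a threshold of 0.05. Stromal genes marked the cultures, with Col1a1 at 28797 CPM, Thy1 at 1192 CPM and Pdgfrb at 378 CPM in the control. Others of the stromal list were low there, with Nt5e at 7.41, the leptin receptor gene Lepr at 1.02 and Vcam1 at 0.324 CPM. Of the smooth muscle and pericyte markers, Tagln stood at 5881 and Acta2 at 4912 CPM in the control, but Des at only 1.51 CPM. Macrophage genes were present too, Lyz2 at 1175 CPM and Csf1r at 139 CPM in the control, and 4 of 11 lymphoid, 3 of 10 megakaryocyte and 2 of 10 endothelial markers had no count in any library. Others of these lists were detected in the control, such as Cd4 at 22.7, Egfl7 at 13.2, Pf4 at 6.5 and Tek at 5.89 CPM. Only 2 of the lymphoid, 2 of the megakaryocyte and 5 of the endothelial markers passed the low-count filter, so the named genes do not stand for their lists. In bulk RNA, fewer cells of a type and less RNA per cell cannot be told apart. No transcript lengths were used here, so levels are compared between groups for the same gene and not between genes.

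More of the adhesion genes were called lower than higher with CSE. Of the 32 tested, 25 (78.1%) passed the threshold, 7 higher and 18 lower, where 73.9% of all tested genes passed, 36.3% higher and 37.5% lower. The CSE and control libraries did not overlap in 24 of the 32, and in 75.8% of all tested genes. Their median log2 fold change was −0.19, against −0.02 over all tested genes. A change of at least 2-fold was called in 6 members, Itga2 upward and Itgb8, Itga1, Tns3, Itga4 and Tns1 downward, and in 25.2% of all tested genes. The split between directions depended on the scaling: 28.0% of the called members were higher with TMM scaling and 14.8% (4 higher, 23 lower) with total counts alone, while among all called genes the share of higher genes was 49.2% and 37.2%. Total counts alone moved the median of all tested genes by −0.19 and upper-quartile scaling by −0.14, so the values of single genes below are relative to the scaling. Cell type markers moved as well. Of 8 smooth muscle and pericyte markers tested, 5 were lower and 1 was higher (median −0.60). Among the lower were Myh11 (−1.25 ± 0.05), Mcam (−0.86 ± 0.06) and Acta2 (−0.62 ± 0.05). Cnn1 was higher (0.21 ± 0.05), and Tagln (0.09 ± 0.05) and Des (−0.59 ± 0.32) did not pass. The summed level of the 9 listed was 9692 to 10751 CPM with CSE and 10969 to 12472 CPM in the control. Of 15 stromal markers, 7 were lower, such as Cxcl12 (−2.17 ± 0.06), Pdgfra (−0.97 ± 0.06) and Prrx1 (−0.95 ± 0.05). The 3 higher ones were Vcam1 (2.51 ± 0.37, from only 0.324 CPM in the control), Cd44 (1.09 ± 0.05) and Thy1 (0.26 ± 0.04), and 5 did not pass. The stromal markers had a median of −0.01 and sums of 44304 to 46087 CPM with CSE and 46309.8 to 49215 CPM in the control. The part of these cell type markers in the differences of the adhesion genes was not tested.

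**Figure D1:**
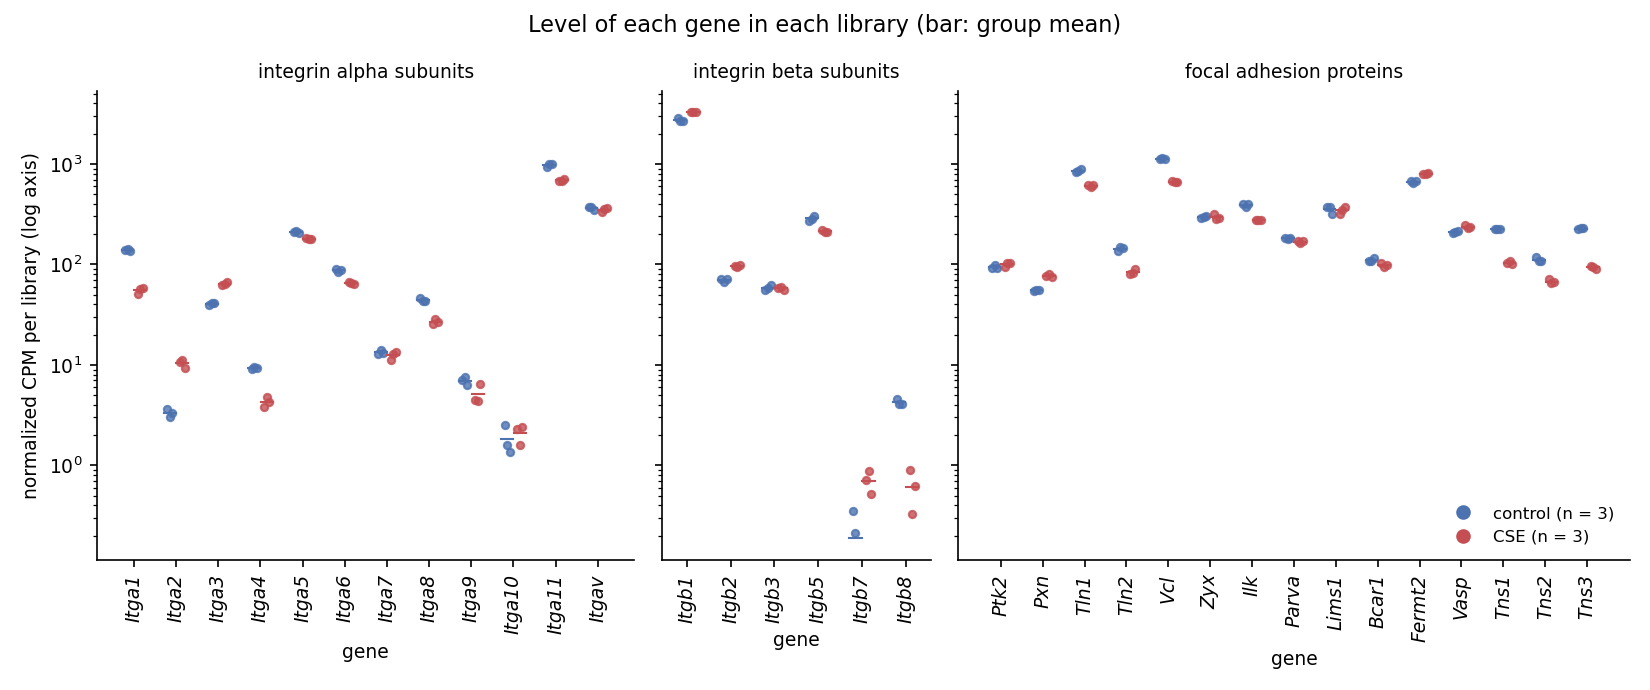
Level of each of the 33 genes in each library as normalized CPM on a log axis, with control libraries in blue, CSE libraries in red and bars at group means. The groups are well apart for Itga1, Tns1, Tns3, Vcl and Itgb8, while Zyx, Lims1 and Itgb3 overlap. The Control3 value of Itgb7 is 0 and cannot be drawn on the log axis.

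Promoter sequences of 3 integrin genes are shown because these genes span the responses: Itgb8 fell most, Itga2 rose most and Itgb1 is the common partner of the collagen and laminin receptors. Each run is the 250 bases before the gene's start in RefSeq's table for rat assembly GRCr8, 5′ to 3′ on the gene's strand, and lies outside the annotated gene. Capitals mark GGAATG, the letters bound by TEAD factors that act with YAP, and TGACNNNGC, the core of the antioxidant response element bound by NRF2.
Itgb8, chr6:146351246-146351495, minus strand: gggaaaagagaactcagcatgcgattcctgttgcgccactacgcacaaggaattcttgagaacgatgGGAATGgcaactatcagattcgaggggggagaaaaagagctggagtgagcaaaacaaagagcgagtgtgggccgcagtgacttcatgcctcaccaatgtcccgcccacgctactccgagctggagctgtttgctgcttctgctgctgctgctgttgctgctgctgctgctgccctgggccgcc
Itga2, chr2:48354510-48354759, minus strand: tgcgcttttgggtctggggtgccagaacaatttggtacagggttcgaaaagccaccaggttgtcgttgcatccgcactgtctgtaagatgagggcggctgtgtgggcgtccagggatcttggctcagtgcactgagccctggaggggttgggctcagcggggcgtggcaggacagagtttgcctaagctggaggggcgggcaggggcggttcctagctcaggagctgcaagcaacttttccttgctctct
Itgb1, chr19:73602027-73602276, plus strand: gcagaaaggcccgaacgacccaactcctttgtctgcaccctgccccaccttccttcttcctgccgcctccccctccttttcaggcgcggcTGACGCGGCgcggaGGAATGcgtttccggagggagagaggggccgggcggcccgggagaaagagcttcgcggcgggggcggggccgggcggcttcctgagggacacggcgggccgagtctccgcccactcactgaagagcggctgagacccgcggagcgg

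The Itgb8 run holds the TEAD letters from 183 to 178 bases before the start and the Itgb1 run holds them from 146 to 141 bases before it. In Itgb1 the antioxidant core lies just upstream of the TEAD letters. The Itga2 run has no capitals, which says only that these letters are absent from this window. Of the 33 genes, 25 have an entry in the promoter table, and 6 of the 25 (24%) hold GGAATG on either strand, namely Itga10, Zyx, Itgb8, Itga3, Vcl and Itgb1. By call, these were 2 of the 5 members with a window called higher and 2 of the 15 called lower. Over all 27457 symbols in the table, 11.8% of such windows hold it. The antioxidant core was found in Zyx, Itgb1 and Lims1, 12% against 10.2% of all windows. The SP1 letters GGGCGG were found in 14 of the 25, 56% against 32.4% of all windows. The heat shock element core GAANNTTC was found in Itga1 alone, 4% against 7.02%. None of the 25 windows held the AP-1 letters TGANTCA or a CArG box, the site of serum response factor, which 6.36% and 1.5% of all windows hold. Both strands were searched for each motif, and no motif was limited to windows outside an annotated gene. The windows of all symbols include genes not tested here and were not matched to the members in expression or base content. No test was made of these percentages.

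Collagen-binding subunits moved apart. Itga1 encodes the subunit that favours basement membrane collagen. It had 139.6 CPM in Control1, 143 in Control2 and 136 in Control3, and 50.8, 57.3 and 58.1 CPM in CSE1, CSE2 and CSE3. All CSE libraries lay below all control libraries, and Itga1 fell 2.52-fold (log2 fold change −1.34 ± 0.06, edgeR adjusted p = 1.0e-12). Itga2, whose product favours fibrillar collagen, went the other way, from 3.65, 3.06 and 3.33 CPM in the control libraries to 10.7, 11.1 and 9.30 CPM with CSE. Its groups did not overlap, and it rose 3.10-fold (1.63 ± 0.14, edgeR adjusted p = 1.3e-08) on 186 control and 609 CSE counts in all. Itga11, the gene of a fibrillar collagen receptor of mesenchymal cells, read 927, 993 and 996 CPM in the control and 674, 674 and 714 CPM with CSE. It was thus lower in every CSE library and fell 1.41-fold (−0.50 ± 0.04, edgeR adjusted p = 2.0e-08). Itga10, known from cartilage, had between 1.36 and 2.53 CPM in all libraries, with overlapping groups and no call (0.22 ± 0.28, edgeR adjusted p = 0.497). Only 27 to 48 counts per library lay behind that value, which makes it the least precise of the alpha genes.

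Within each library, the share of a subunit in the summed counts of all 12 alpha genes does not depend on how libraries are scaled. Itga1 supplied 7.37% ± 0.160 of those counts in the control and 3.78% ± 0.194 with CSE (SD, n = 3). The share of Itga2 went from 0.177% ± 0.0191 to 0.708% ± 0.0790, and that of Itga11 from 51.3% ± 1.39 to 46.9% ± 0.670. Shares of these 3 genes did not overlap between the groups. Relative to each other, Itga2 made up 2.09% to 2.55% of the joint counts of Itga1 and Itga2 in the control libraries and 13.8% to 17.4% in the CSE libraries. No test was made of these shares.

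**Figure D2:**
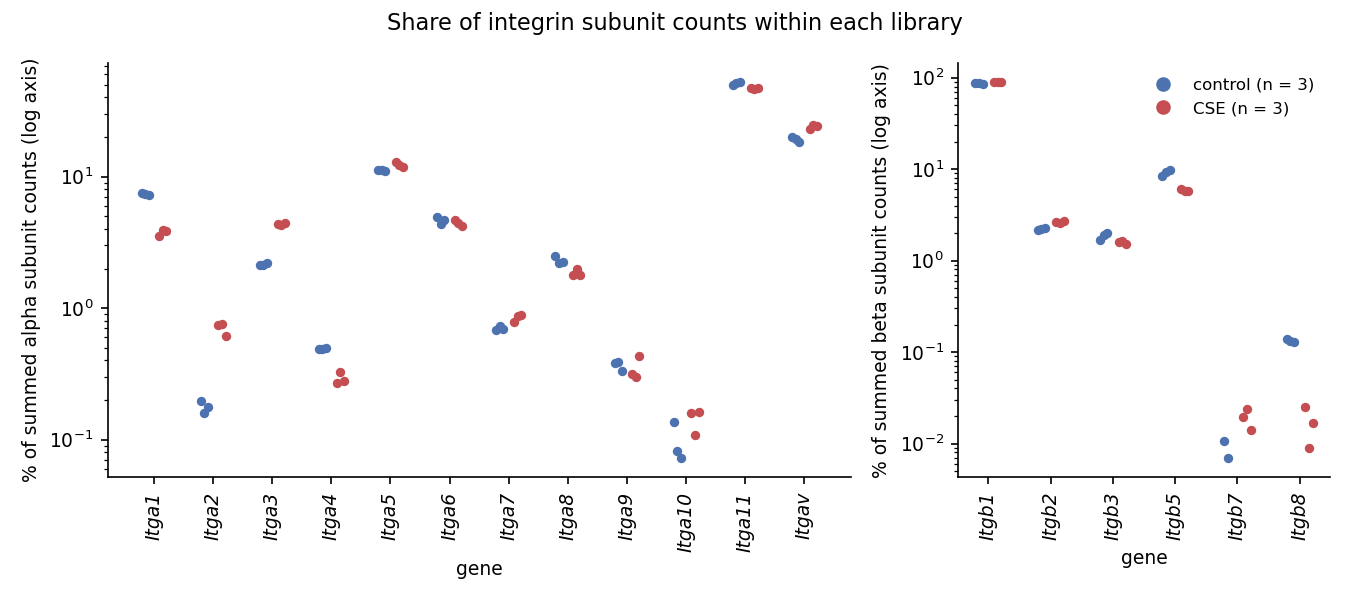
Share of each integrin gene in the summed alpha (left) or beta (right) subunit counts of its library, in percent on a log axis, with 3 control libraries in blue and 3 CSE libraries in red. Itga2 and Itga3 take larger shares with CSE and Itga1, Itga4, Itgb5 and Itgb8 smaller ones, while the shares of Itga6 and Itga9 overlap. The share of Itgb7 in Control3 is 0 and is not drawn.

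Laminin-binding subunits also divided. Itga3, whose product pairs with beta 1 as a receptor for laminins of basement membranes, had 39.3, 41.4 and 41.6 CPM in the control and 62.8, 63.2 and 66.5 CPM with CSE. Every CSE library was above every control library, a 1.57-fold rise (0.65 ± 0.06, edgeR adjusted p = 1.4e-08). Itga6, the other main laminin subunit, read 91.0, 84.3 and 87.9 CPM in the control and 67.0, 65.4 and 63.2 CPM with CSE, and fell 1.35-fold (−0.43 ± 0.05, edgeR adjusted p = 1.3e-06). Itga7, best known from muscle, had 13.3 ± 0.808 CPM in the control and 12.5 ± 1.09 with CSE (SD, n = 3). Its groups overlapped and it did not pass (−0.10 ± 0.10, edgeR adjusted p = 0.393). It was called lower under upper-quartile scaling (−0.24, edgeR adjusted p = 0.0473) and total counts alone (−0.29, edgeR adjusted p = 0.0185). The share of Itga3 among alpha counts went from 2.15% ± 0.0435 to 4.38% ± 0.0491, and that of Itga6 overlapped between groups at 4.64% ± 0.263 and 4.45% ± 0.246.

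Itga5 and Itgav, subunits of receptors for fibronectin and vitronectin, differed little between the groups, while Itga8 was lower. Itga5, the subunit of the classic fibronectin receptor, had 210.2, 216 and 207 CPM in the control and 184, 179.7 and 179 CPM with CSE. The CSE libraries were all lower, by a small 1.17-fold (−0.22 ± 0.04, edgeR adjusted p = 2.5e-04). Itgav, which pairs with several beta subunits, ranged from 347 to 374 CPM in the control and from 332 to 363 CPM with CSE. These ranges overlap and Itgav did not pass (−0.05 ± 0.05, edgeR adjusted p = 0.359), although it was called lower under upper-quartile scaling (−0.19, edgeR adjusted p = 0.00201) and total counts alone (−0.24, edgeR adjusted p = 2.8e-04). As a share of alpha counts, Itga5 went from 11.1% ± 0.177 to 12.4% ± 0.512 and Itgav from 19.2% ± 0.812 to 24.0% ± 0.656, with no overlap. Itga8, whose product binds nephronectin and is found on mesenchymal cells, fell 1.63-fold from 46.3, 42.9 and 42.8 CPM to 25.5, 28.7 and 26.9 CPM (−0.70 ± 0.07, edgeR adjusted p = 5.1e-08). Both groups were tight and lay well apart.

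The alpha 4 and alpha 9 subunits, whose receptors bind the cell adhesion molecule VCAM-1, fibronectin and tenascin, were scarce in both groups. Itga4 had 9.01, 9.49 and 9.38 CPM in the control and 3.84, 4.80 and 4.24 CPM with CSE, so all CSE libraries were at about the same lower level. This was a 2.17-fold fall (−1.12 ± 0.14, edgeR adjusted p = 8.9e-07). Itga9 had 7.07, 7.54 and 6.31 CPM in the control and 4.51, 4.36 and 6.46 CPM with CSE. CSE3 lay above Control3, so the groups overlapped, and the call (−0.45 ± 0.16, edgeR adjusted p = 0.0205) ended without CSE1 (−0.35, edgeR adjusted p = 0.0922), without CSE2 (−0.34, edgeR adjusted p = 0.103) and without Control2 (−0.39, edgeR adjusted p = 0.0710).

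Among the beta subunits, the shared partner rose slightly while a partner of alpha v fell sharply. Itgb1, the partner of most alpha subunits above, had 2875, 2645 and 2705 CPM in the control and 3255, 3283 and 3301 CPM with CSE. All CSE libraries were higher, by 1.20-fold (0.26 ± 0.04, edgeR adjusted p = 2.3e-05), but with total counts alone the difference was 0.07 and did not pass (edgeR adjusted p = 0.113). Its share of beta counts, which needs no scaling, was 86.7% ± 0.899 in the control and 89.9% ± 0.223 with CSE (SD, n = 3), without overlap. That share also depends on the other beta genes, and Itgb5 went from 9.08% ± 0.701 to 5.85% ± 0.193. The share therefore cannot show whether Itgb1 itself rose. The summed CPM of the 12 alpha genes was lower with CSE (1429 to 1507, against 1859 to 1930.5), also over total counts alone (1334 to 1403, against 1978 to 2071). That of the 6 beta genes was higher with TMM scaling (3632 to 3668, against 3058 to 3279.5), but over total counts alone the groups overlapped (3389 to 3440.1, against 3281 to 3489.6).

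Itgb8, whose product with alpha v activates latent TGF-beta, had the deepest fall of all members. It had 78, 77 and 80 counts in Control1, Control2 and Control3 and 19, 6 and 12 counts in CSE1, CSE2 and CSE3. In CPM this was 4.59, 4.06 and 4.04 against 0.901, 0.327 and 0.620, a 6.68-fold fall (−2.74 ± 0.28, edgeR adjusted p = 1.2e-07). Itgb5, a vitronectin receptor subunit, had 273, 283 and 305 CPM in the control and 220.4, 208 and 212 CPM with CSE. It was lower in every CSE library and fell 1.34-fold (−0.43 ± 0.05, edgeR adjusted p = 6.3e-07). Itgb3, the other vitronectin receptor subunit, overlapped fully, at 55.4 to 62.4 CPM in the control and 56.1 to 60.2 CPM with CSE (−0.02 ± 0.06, edgeR adjusted p = 0.787). It was called lower under upper-quartile scaling (−0.16, edgeR adjusted p = 0.0295) and total counts alone (−0.21, edgeR adjusted p = 0.00508). Among the joint counts of these 3 partners of alpha v, Itgb5 went from 82.0% ± 0.139 to 78.4% ± 0.848 and Itgb8 from 1.21% ± 0.151 to 0.225% ± 0.100. Itgb3 went from 16.8% ± 0.161 to 21.4% ± 0.939 of them, a larger share without a rise in its level. Of the counts of all 6 beta genes, Itgb3 had a smaller share with CSE (1.59% ± 0.0616, against 1.86% ± 0.153). None of these shares overlapped between groups.

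The leukocyte beta subunits stood beside signs of macrophages in the cultures. Itgb2, the partner of the leukocyte alpha subunits L, M, X and D, rose 1.37-fold from 71.2, 67.6 and 72.2 CPM to 96.6, 93.9 and 98.1 CPM (0.45 ± 0.05, edgeR adjusted p = 4.5e-07), and the groups did not overlap. Its partner genes gave other values. Itgal fell 1.78-fold from 27.6 ± 0.290 to 15.6 ± 2.02 CPM (−0.83 ± 0.09, edgeR adjusted p = 1.9e-07), Itgam had 42.6 CPM in the control and 39.2 CPM with CSE without passing (−0.12, edgeR adjusted p = 0.0895), and Itgax rose slightly (0.17 ± 0.07, edgeR adjusted p = 0.0331). The Itgax call ended under 8 of 14 alternatives and turned sign under another, total counts alone (−0.02). Of 17 macrophage markers listed, 16 were tested, with 4 called higher, 4 called lower and 8 without a call, a called share of 50% against 73.9% of all tested genes. The higher ones were Lyz2, Laptm5, Tyrobp and Cd68, and the lower ones Cd14, Ptprc, Mrc1 and Csf1r. The summed level of the 17 was 1953 to 2021 CPM in the CSE libraries and 1749 to 1799 CPM in the control. Most of that sum was Lyz2, at 1399 to 1442 CPM with CSE and 1156 to 1195 CPM in the control. The higher sum therefore follows Lyz2 and does not give the direction of the other markers. Cd163 was at 0 in all libraries. The part of macrophages in the Itgb2 difference was not tested. Itgb7, another leukocyte subunit, had 15, 16 and 10 counts with CSE and 6, 4 and 0 counts in the control. It was too scarce for the filter, and without the filter it was called higher (1.90 ± 0.61, edgeR adjusted p = 0.00427). P-values of that fit are not comparable with the main ones. For Itga1, at −1.34 in both fits, the edgeR adjusted p was 1.0e-12 with the filter and 1.6e-109 without it. The Itgb7 call is therefore not set beside the others.

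**Figure D3:**
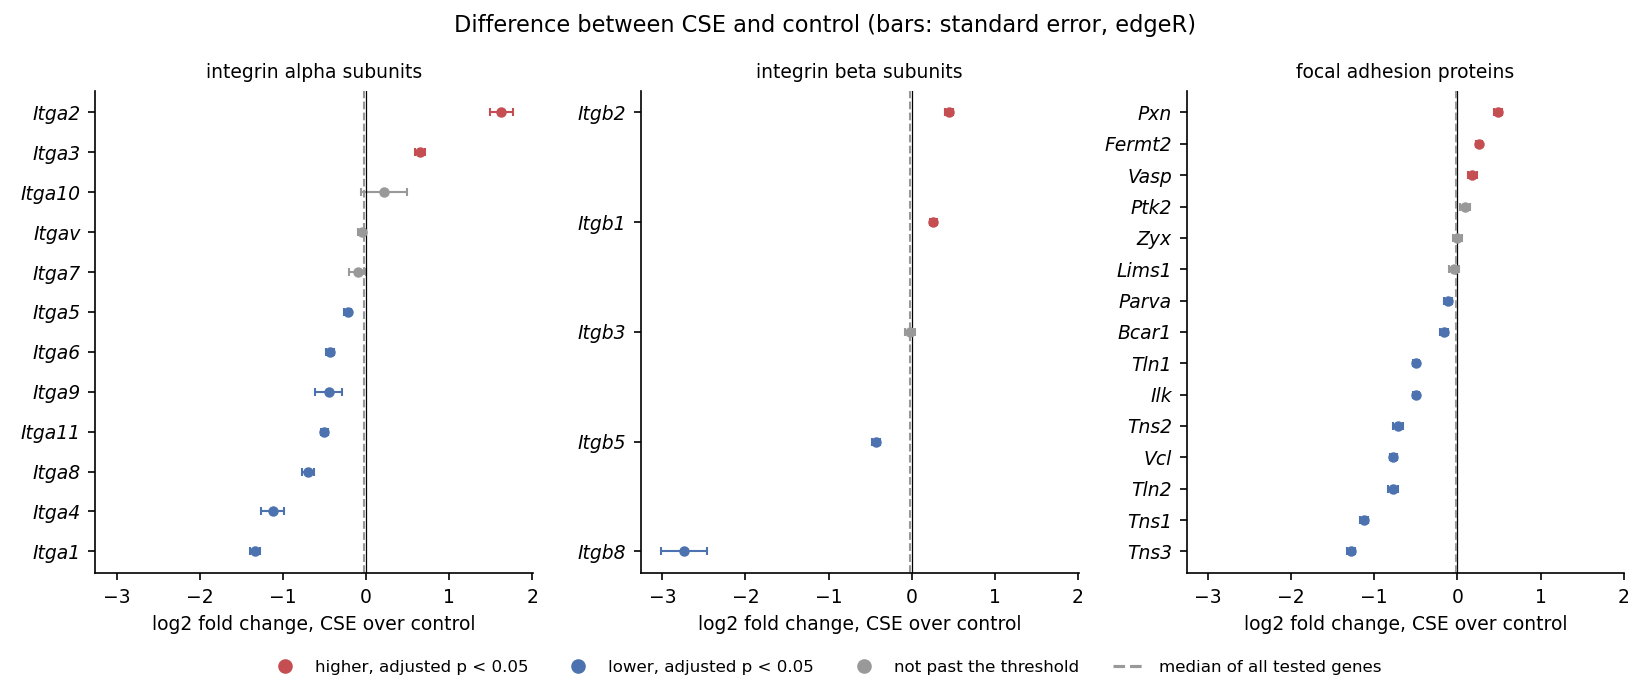
Log2 fold change of CSE over control for the 32 tested genes, with standard errors from edgeR as bars, red for genes called higher, blue for genes called lower and grey for genes that did not pass. Each class holds genes on both sides of 0, from Itga2 at 1.63 to Itgb8 at −2.74, and the dashed line marks the median of all tested genes at −0.02.

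In the plaque, both talin genes and the vinculin gene were lower. Talin 1, which binds the beta tail and pulls the receptor into its active form, is encoded by Tln1. It had 822, 858 and 884 CPM in the control and 612, 583 and 613 CPM with CSE, a 1.42-fold fall (−0.50 ± 0.04, edgeR adjusted p = 1.3e-08). Its paralog Tln2 had 136, 148 and 146 CPM in the control and 79.6, 81.7 and 90.0 CPM with CSE, a 1.71-fold fall (−0.78 ± 0.06, edgeR adjusted p = 1.2e-09). All CSE libraries were lower for both talins, and Tln2 went from 14.4% ± 0.268 to 12.2% ± 0.647 of the joint talin counts (SD, n = 3), without overlap. Vcl, the gene of vinculin, which reinforces talin's hold on actin, stood at 1113, 1142 and 1124 CPM in the control and at 670.3, 655 and 659 CPM with CSE. This 1.70-fold fall (−0.77 ± 0.04, edgeR adjusted p = 1.4e-11) was many times the spread within either group.

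All 3 tensin genes fell. Tensins bind integrin tails and actin in the long, matrix-aligned adhesions of fibroblast-like cells. Tns3 had 223, 230.4 and 228 CPM in the control and 95.4, 93.8 and 91.0 CPM with CSE, a 2.43-fold fall with the smallest p among the members (−1.28 ± 0.05, edgeR adjusted p = 1.2e-13). Tns1 had 224, 226 and 227 CPM in the control and 103, 108 and 100.2 CPM with CSE, a 2.18-fold fall (−1.12 ± 0.05, edgeR adjusted p = 9.5e-13). For Tns2 the values were 119, 109 and 107 CPM in the control and 70.9, 65.3 and 66.6 CPM with CSE, a 1.65-fold fall (−0.72 ± 0.06, edgeR adjusted p = 3.5e-09). None of the tensins overlapped between groups. Tns2 went from 19.7% ± 1.08 to 25.5% ± 0.998 of the joint tensin counts, and Tns3 went from 40.2% ± 0.679 to 35.3% ± 0.211.

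Ilk, Lims1 and Parva encode integrin-linked kinase, PINCH1 and alpha-parvin, which form 1 complex behind the beta tail, and they did not move together. Ilk had 395, 375 and 402 CPM in the control and 277, 274 and 276 CPM with CSE, and fell 1.42-fold (−0.50 ± 0.04, edgeR adjusted p = 1.6e-08). Its CSE libraries were nearly identical and all below the control. Lims1 ranged from 318 to 373 CPM in the control and from 319 to 370.4 CPM with CSE, so the groups covered the same range (−0.04 ± 0.06, edgeR adjusted p = 0.606). Of 14 alternatives, 2 called it lower, among them total counts alone (−0.23, edgeR adjusted p = 0.00375). Parva had 182 ± 1.48 CPM in the control and 169 ± 5.15 with CSE (SD, n = 3), and its difference (−0.11 ± 0.05, edgeR adjusted p = 0.0462) passed by so little that 9 of 14 alternatives ended the call, with adjusted p up to 0.220, reached without CSE2. Fermt2, the gene of kindlin-2, which binds the beta tail beside talin, rose where the talins fell. It had 674, 652 and 676 CPM in the control and 787, 798 and 817 CPM with CSE, a 1.20-fold rise (0.26 ± 0.04, edgeR adjusted p = 1.8e-05). Under total counts alone that difference was 0.07 and did not pass (edgeR adjusted p = 0.0983).

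Signalling scaffolds of the plaque changed little, except paxillin. Pxn, whose product recruits FAK and other partners to the young adhesion, rose 1.40-fold from 54.5, 55.2 and 56.2 CPM to 77.2, 80.2 and 75.2 CPM (0.49 ± 0.05, edgeR adjusted p = 2.6e-07). Its groups were far apart for their narrow spread. Ptk2, the gene of FAK, the main tyrosine kinase of focal adhesions, ranged from 91.5 to 99.3 CPM in the control and from 93.4 to 104 CPM with CSE, with overlap and no call (0.09 ± 0.06, edgeR adjusted p = 0.181). Without CSE1 it passed (0.14, edgeR adjusted p = 0.0370), and it turned to −0.05 with upper-quartile scaling and to −0.10 with total counts alone, neither past the threshold. Bcar1, the gene of the FAK and Src substrate p130Cas, had 111 ± 3.66 CPM in the control and 98.8 ± 5.11 with CSE, a small fall (−0.16 ± 0.05, edgeR adjusted p = 0.0107) that ended without CSE2 (−0.12, edgeR adjusted p = 0.0832).

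Zyx and Vasp, which act together in actin assembly and repair at adhesions under tension, showed little difference. Zyx ranged from 281 to 318 CPM with CSE and from 292 to 300.1 CPM in the control, and CSE1 was its highest library. Its mean was 297 CPM in both groups (edgeR adjusted p = 0.953), but it was called lower under upper-quartile scaling (−0.14, edgeR adjusted p = 0.018) and total counts alone (−0.19, edgeR adjusted p = 0.00183). Vasp had 206, 209 and 215 CPM in the control and 248, 228 and 236 CPM with CSE, a 1.13-fold rise (0.18 ± 0.05, edgeR adjusted p = 0.00287). That call ended under upper-quartile scaling (0.04, edgeR adjusted p = 0.469) and total counts alone (−0.01, edgeR adjusted p = 0.818).

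**Figure D4:**
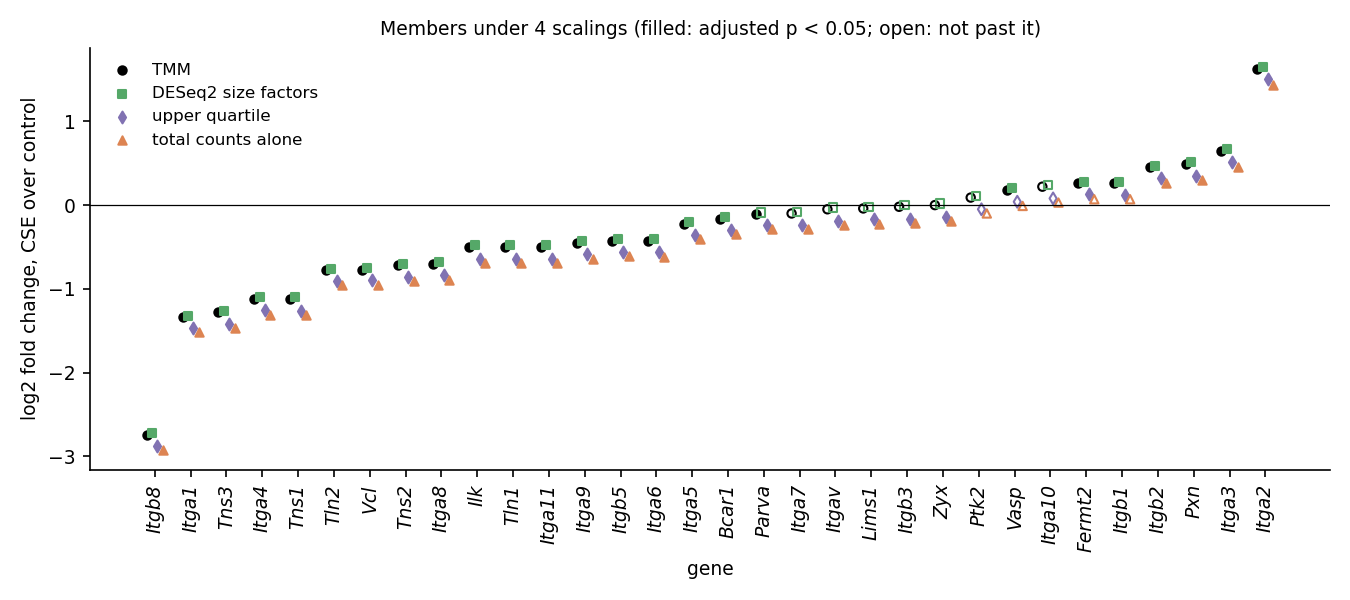
Log2 fold change of the 32 tested genes under 4 ways of scaling libraries, with filled symbols past an adjusted p of 0.05 and open symbols not past it. Total counts alone puts every gene lower than TMM does, which leaves Itga2, Itga3, Pxn and Itgb2 called higher and takes Itgb1, Fermt2 and Vasp below the threshold.

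Other genes of the same machinery were taken from lists made for this purpose, with earlier results of these data known. Of 38 further plaque proteins, 34 were tested, 24 were lower, 8 were higher and 2 did not pass, a called share of 94.1% against 73.9% of all tested genes, with a median log2 fold change of −0.61 against −0.02. Sorbs2, an adaptor that binds vinculin, fell 4.95-fold from 76.1 ± 4.45 to 15.4 ± 0.435 CPM (−2.31 ± 0.07, edgeR adjusted p = 6.1e-15). Fblim1, the gene of migfilin, a filamin-binding LIM protein, fell 3.14-fold from 74.2 ± 3.15 to 23.6 ± 0.893 CPM (−1.65 ± 0.06, edgeR adjusted p = 1.7e-13). The rises included the actin crosslinker gene Flnc, 1.73-fold from 487 ± 18.0 to 846 ± 53.7 CPM, and Enah, which encodes an actin elongation factor related to Vasp, 1.45-fold from 197 ± 10.7 to 286 ± 2.87 CPM. Among genes named after their values were seen, the crosslinkers Actn1 (−0.65 ± 0.04) and Actn4 (−0.45 ± 0.04), the talin-binding Kank2 (−1.81 ± 0.07) and the LIM protein gene Ajuba (−1.42 ± 0.06) were lower. Flna, Palld and Tns4 were listed at 0 in all libraries.

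Some plaque members have paralogs with other values, again in genes named after their values were seen. Lims2, the gene of PINCH2, fell from 79.4 to 22.9 CPM (−1.79 ± 0.08, edgeR adjusted p = 8.8e-13), where Lims1 did not pass, and its part of the joint counts of the pair was 17.3% to 20.2% in the control libraries and 4.98% to 7.04% in the CSE libraries. Nedd9, a p130Cas paralog that the rule for named genes also takes, fell 5.81-fold from 107 ± 4.58 to 18.5 ± 1.56 CPM (−2.54 ± 0.07, edgeR adjusted p = 1.8e-15), so that Bcar1 supplied 43.1% to 44.1% of the joint counts of Bcar1, Nedd9 and Efs in the control and 70.5% to 71.7% with CSE. For the kindlins, Fermt3 rose as Fermt2 did (0.26 ± 0.06, edgeR adjusted p = 9.3e-04), and Fermt2 made up 95.0% to 95.2% of the joint counts of Fermt2 and Fermt3 in each group.

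Kinases, adaptors and GTPases of adhesion signalling moved in both directions. Of 42 listed, 40 were tested, with 21 called higher, 13 called lower, a called share of 85.0% against 73.9% of all tested genes, and a median of 0.12. This balance turned with the scaling, to 15 higher and 17 lower with upper-quartile scaling and 14 higher and 17 lower with total counts alone. Rhob, the gene of an endosomal small GTPase, rose 2.15-fold from 339 ± 9.41 to 728 ± 16.3 CPM, and Ptpn1, the gene of a tyrosine phosphatase, 2.13-fold from 60.1 ± 1.45 to 128 ± 2.84 CPM. Pak1, the gene of a kinase downstream of Rac, fell 1.62-fold from 109 ± 2.27 to 67.2 ± 1.57 CPM. The Src family kinase genes, named after their values were seen, parted: Src (0.64 ± 0.05) and Fyn (1.09 ± 0.05) rose and Yes1 (−0.83 ± 0.06) fell. Yes1 went from 53.1% ± 1.43 to 25.9% ± 1.34 of the joint counts of the trio and Fyn from 22.9% ± 0.161 to 42.0% ± 0.173.

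Among genes that regulate integrin activity, the tetraspanins and genes of integrin trafficking, 20 of 35 tested rose, 10 fell and 5 were not past the threshold. The called share was 85.7% against 73.9% of all tested genes, and the median was 0.31. Plaur, the gene of the urokinase receptor, which associates with integrins, rose 8.85-fold from 43.0 ± 2.06 to 381 ± 13.5 CPM (3.15 ± 0.05, edgeR adjusted p = 6.6e-18). Slc3a2, the heavy chain gene of amino acid transporters that also binds beta 1 tails, rose 3.27-fold from 306 ± 11.3 to 1001 ± 46.8 CPM. Dab2, an endocytic adaptor for integrins, fell 1.71-fold from 158 ± 9.28 to 92.7 ± 3.19 CPM, and Snx17, which returns beta 1 integrins to the surface, 1.54-fold from 43.9 ± 2.72 to 28.6 ± 2.37 CPM.

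Integrin ligands moved in both directions. Of 41 listed, 32 were tested, with 8 called higher, 14 called lower, a called share of 68.8%, near the 73.9% of all tested genes, and a median of −0.01. Thbs1, the matricellular ligand thrombospondin 1, fell 10.4-fold from 13083 ± 345 to 1253 ± 23.3 CPM (−3.38 ± 0.04, edgeR adjusted p = 1.3e-19), and Ccn2 (Ctgf in the table), another matricellular ligand, 6.37-fold from 5683 ± 76.5 to 892 ± 105 CPM. Postn, the gene of periostin, a ligand of alpha v integrins, rose 1.44-fold from 3270.3 ± 119.5 to 4708 ± 135 CPM, and Lamc1, the laminin gamma 1 chain, 1.46-fold from 488 ± 8.97 to 712 ± 26.7 CPM. The fibronectin gene Fn1, named after its values were seen, did not pass (0.07, edgeR adjusted p = 0.0853). Of 8 integrin subunits outside the member list, 6 were tested and 2 passed, Itgal lower and Itgax higher.

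**Figure D5:**
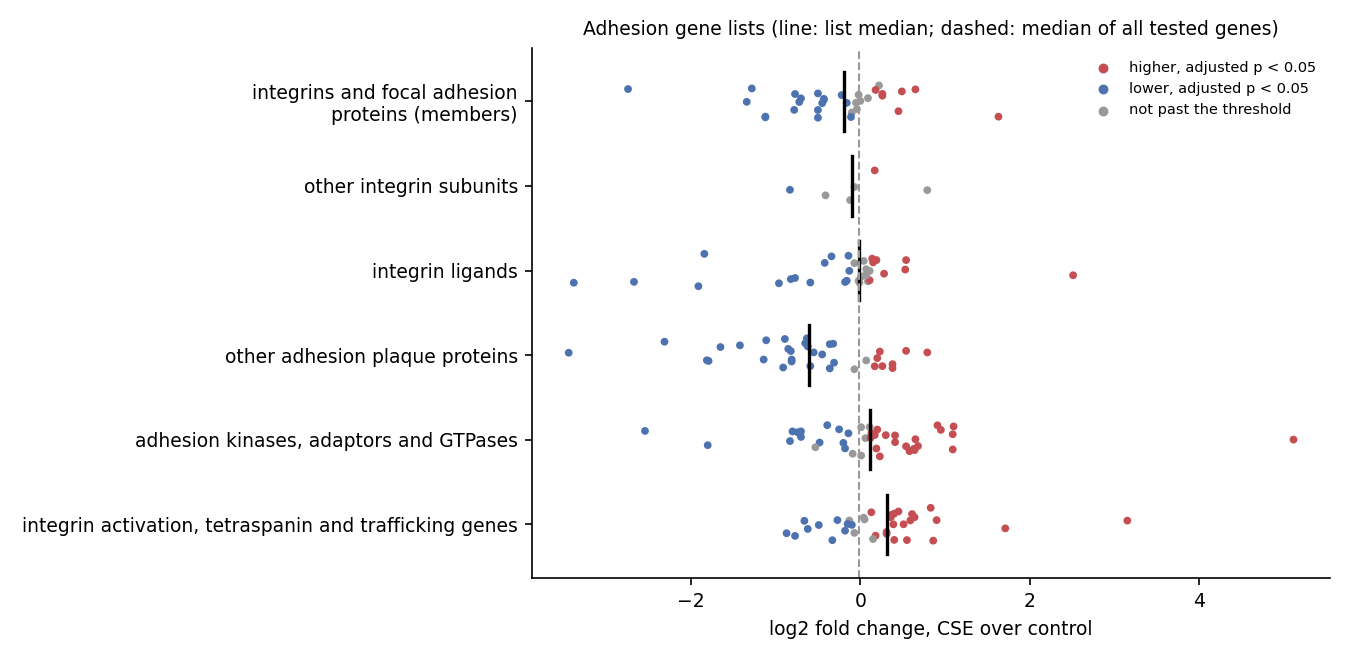
Log2 fold change of CSE over control for the tested genes of each list, 1 point per gene, coloured by call, with a black line at the list median and a dashed line at the median of all tested genes. The further plaque proteins sit lowest with a median of −0.61, and the kinase and trafficking lists lie at 0.12 and 0.31.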

How the data were processed

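RNA was sequenced in 3 CSE and 3 control libraries of rat BMSCs. The authors deposited 1 table of raw read counts per gene symbol, whole and not normalized. HISAT2 2.0.4 and the rat build Rnor_6.0 are named, per the submitters' processing notes. The counter, annotation and strand setting: not given in the sources used here. Overlapping genes may therefore share reads. Columns were mapped to libraries by name.

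Counts were filtered with filterByExpr (minimum count 10), which kept 13390 of 21252 genes with any count, scaled by TMM (factors 0.932 to 1.07) and tested with edgeR 4.0.16 in R 4.3.3, without a block. A standard error is the log2 fold change divided by the square root of F. DESeq2 1.42.0, limma 3.58.1 (voom), 3 other scalings, 2 other filters, a replicate block and leaving out each library were tried. The steps were tested on simulated counts. Replicate pairs had a chi-square per degree of freedom of 3.24 to 5.74, so no pair agreed within sampling noise. The limit that a count of 0 allows, 3 counts, was 0.142 to 0.177 CPM and covers counting error only.

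All members were to be named or counted. From each other list, up to 4 called genes with the smallest adjusted p were named, at most 2 a direction, with a mean of at least 5 CPM in 1 group. Members and lists were chosen with earlier results of these data known. Gene symbols missing from the table were looked up by RefSeq synonym. Promoter windows and chromosomes come from RefSeq for GRCr8, another build than the counts.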

Additional observations from a re-analysis of the deposited data

How the results depend on the processing

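Of the 32 tested members, 20 kept their direction and side of the threshold under all alternatives that tested them (14, or 13 for a gene below the stricter filter), and 12 did not. The count of all genes called stayed within 1.5 times of 9894, from 8241 to 10684. With total counts alone 4 members were higher and the members' median was −0.38, and with upper-quartile scaling the median was −0.33. Under both scalings, 4 ligands and 4 further plaque proteins were higher, and of the integrins outside the member list 0 were higher and 3 lower. In that last list 0 were also higher with no filter, with the stricter filter, which gave 2 lower, and with the replicate block. Leaving out 1 library gave −0.21 to −0.15 for the members' median, 7 to 8 members higher, 15 to 17 lower, and in the last list 0 to 1 higher and 1 to 2 lower. Signs turned for Itgb3 (0.00 with DESeq2 size factors and with the DESeq2 test, −0.06 to 0.01 over the left-out libraries), Zyx (0.02 with DESeq2 size factors and with the DESeq2 test, 0.02 to 0.04 without CSE3 or CSE2), Ptk2 (−0.05 with upper-quartile scaling, −0.10 with total counts alone), Lims1 (−0.12 to 0.02 over the left-out libraries), and, with total counts alone, Vasp (−0.01) and Itgax (−0.02). The cause was not tested.

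The labels do not say whether the replicate numbers pair the libraries. Deviations of same-numbered libraries from their group means correlated at 0.020, −0.027 and 0.001 across genes, and those of different-numbered libraries at −0.078 to 0.086. With means of only 3 libraries these correlations depend on one another, so they cannot settle the pairing. With the replicate block, 9756 genes, 7 members higher and 17 lower were called, and Parva was the member that lost its call. Shares per length were not run, since no transcript lengths were used. Counts limit Itgb7, Itgb8, Itga10, Itga9, Itga4 and Itga2, which had under 100 counts in some library.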
